A study of Rattus norvegicus with 16 samples.

Results

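The aminoacyl-tRNA synthetase genes of rat liver were examined here in 4 nutritional states. The genes were chosen by symbol: a 1-letter amino acid code followed by ars, with or without a final 1 or 2, together with Farsb, Eprs1 and Aarsd1, on rows of the table that carry exactly 1 gene symbol. The rule found 27 genes among 13223 genes that have their own row: 13 cytosolic synthetases, 13 mitochondrial synthetases, whose symbols end in 2, and Aarsd1, which edits wrongly charged alanine tRNA and is no synthetase. Each gene had 1 row. Other genes of the family were not analysed here. RNA from the livers of 16 male Sprague Dawley rats was hybridised to Affymetrix Rat Exon 1.0 ST arrays, with 1 array per animal and 4 animals per group. The groups were fed rats (fed), rats in phase 2 of fasting (P2), rats in phase 3 (P3), and rats brought to phase 3 and given food again for 2 days (P3r2). No genotype or drug differed between them, and the sources used here give neither ages nor lengths of fasting.

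Aminoacyl-tRNA synthetases join each amino acid to its transfer RNA and so supply the ribosome with its substrates. The cytosol and the mitochondrion run separate protein synthesis, and most amino acids have a separate nuclear gene for each compartment. Some genes depart from this plan: Kars1 serves both compartments, Eprs1 carries the glutamate and the proline enzyme on a single chain, and Farsb is the beta chain of the cytosolic phenylalanine enzyme. Several cytosolic synthetases sit in a multisynthetase complex with the accessory proteins Aimp1, Aimp2 and Eef1e1. Genes of several cytosolic synthetases are known targets of ATF4, the transcription factor of the amino acid response, which is translated when uncharged tRNA or other stress slows initiation. In a long fast, phase 2 spares body protein and burns fat, and phase 3 draws on body protein.

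Values below are log2 signals as deposited, and changes are log2 fold changes ± standard error from limma with 4 arrays per group. A gene is said to be called, or to have risen or fallen, where the limma adjusted p over all 18885 rows was below 0.05. With 4 arrays a group, only changes well above the spread between animals can be called. The correlation between arrays was 0.966 to 0.992 inside a group and 0.912 to 0.985 across groups. Values spread least in the arrays fed 2, P2 4 and P3 3 (standard deviations 2.12, 2.14 and 2.18), and each of these 3 had the lowest cytosolic synthetase median of its group. Hepatocyte markers were bright on every array: the mean log2 signal of the 8 measured of 10 lay between 11.7 and 12.5. In P3 against fed, 1 of these rose (Cps1) and 2 fell (Ttr and Asgr1). In whole liver, fewer cells of a type and less RNA per cell cannot be told apart.

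Of the 27 genes, 26 had a mean signal above the median of all rows (4.39). The exception was Lars2, the mitochondrial leucine enzyme, whose mean of 2.61 stood at percentile 11.2. The file gives no detection call, so whether Lars2 was above background is unknown. Cytosolic members had means between 6.80 (Vars1) and 9.33 (Tars1), and mitochondrial members between 2.61 (Lars2) and 7.09 (Fars2). These levels come from different probes and are given for the range only.

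Across the 4 states, the medians of the cytosolic and the mitochondrial enzymes stood apart at P3. For each array, the median over 13 genes of the log2 signal minus the gene's mean over 16 arrays was taken. For the cytosolic genes it averaged -0.11 ± 0.31 in fed livers, -0.50 ± 0.28 at P2, 0.34 ± 0.25 at P3 and 0.32 ± 0.09 after re-feeding (SD, n = 4 each). For the mitochondrial genes it averaged -0.06 ± 0.14 in fed livers, -0.27 ± 0.15 at P2, -0.06 ± 0.16 at P3 and 0.38 ± 0.10 after re-feeding. Each P3 array had a higher cytosolic than mitochondrial median, by 0.19 to 0.52. That difference lay between -0.33 and 0.12 on the fed arrays, between -0.53 and -0.07 on the P2 arrays and between -0.10 and -0.05 on the P3r2 arrays, so the P3 arrays did not overlap the others. These medians describe the chosen genes and carry no test. The cytosolic genes were also the brighter set (median of the mean signals 8.09, against 6.38 for the mitochondrial genes). The part of brightness in the difference was not tested.

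**Figure D1:**
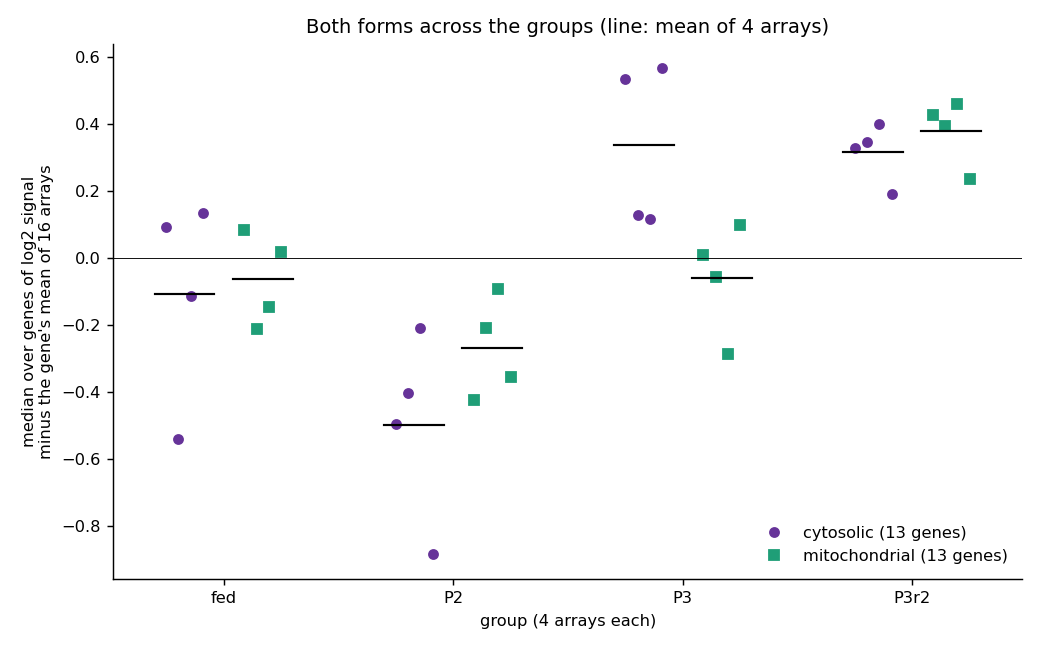
Median over 13 cytosolic genes (circles) and 13 mitochondrial genes (squares) of the log2 signal minus each gene's mean over 16 arrays, by group, with 1 point per array and a line at the mean of 4 arrays. The cytosolic mean is -0.50 at P2 and 0.34 at P3, and the mitochondrial mean is -0.06 at P3 and 0.38 at P3r2; the lowest cytosolic points are fed 2 (-0.54) and P2 4 (-0.88).

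**Figure D2:**
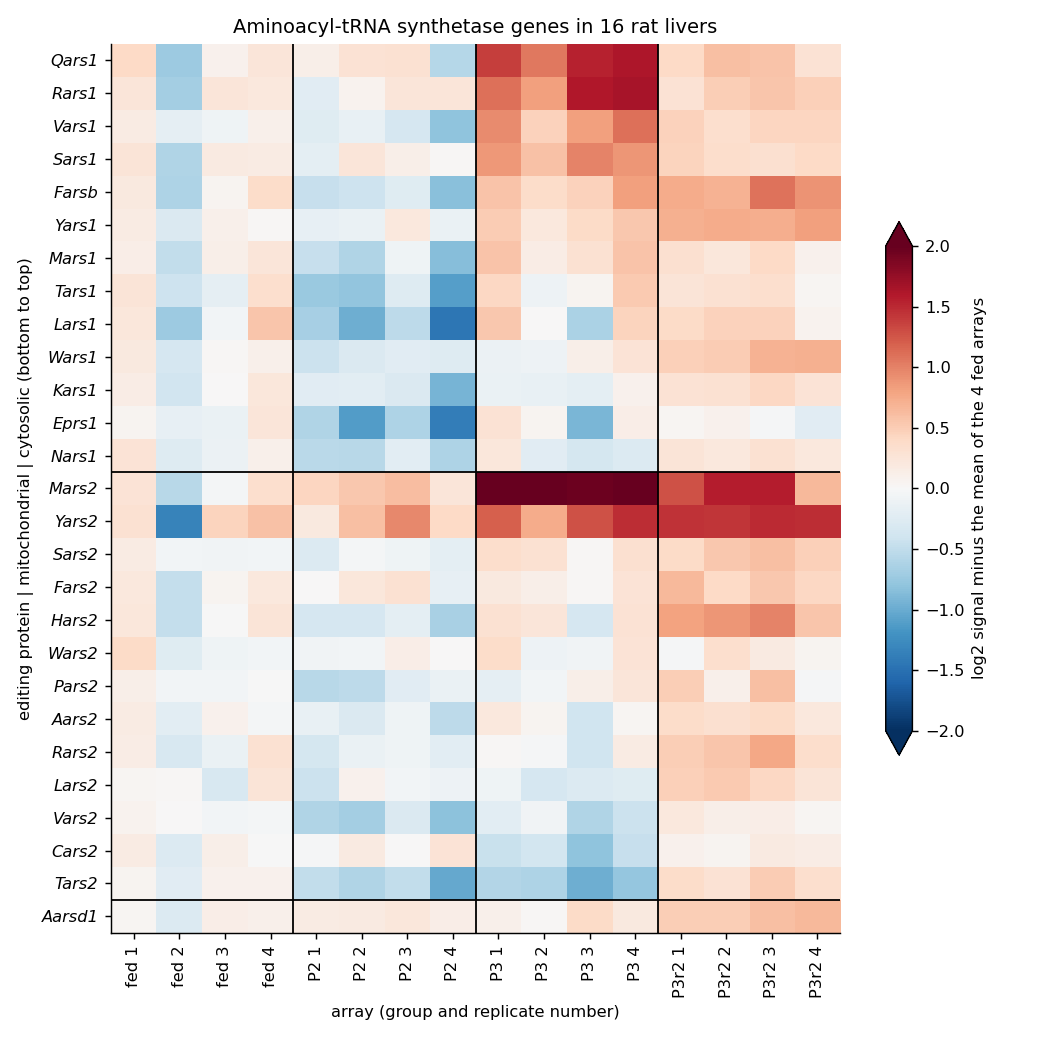
Log2 signal minus the mean of the 4 fed arrays for all 27 genes (colour scale cut at 2 and -2; rows: cytosolic at the top, mitochondrial below, Aarsd1 last; each block ordered by the change of P3 against fed) on 16 arrays (columns). Mars2, Qars1 and Rars1 stand out in the 4 P3 columns, Tars2 is lower in the P2 and P3 columns, and most genes are above the fed mean in the P3r2 columns.

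In P3 livers against fed livers, 7 of the 27 genes rose and 2 fell. Over all rows 11.3% were called higher and 8.06% lower, and among the rows with a mean at or above the median 20.8% were higher and 14.5% lower, so the share of members higher (25.9%) was close to that of the brighter rows. Of the 13 cytosolic enzymes, 5 rose (Qars1, Rars1, Vars1, Sars1 and Yars1) and none fell, also at an unadjusted p below 0.05, where 7 were higher. Of the 13 mitochondrial enzymes, Mars2 and Yars2 rose, and Tars2 and Cars2 fell. The median change was 0.40 for cytosolic members, 0.03 for mitochondrial members and 0.03 over all rows. All 4 P3 livers were above all 4 fed livers in 7 members and below them in 3, against 11.5% and 8.05% of all rows.

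Mars2, which charges mitochondrial methionine tRNA, had the largest change of the 27 genes (transcript cluster 7354655, GRCr8 chr9:64214935-64228408). The array annotation names this row under a gene identifier that the RefSeq table does not list, so the name and position of Mars2 rest on the symbol alone, and whether the probes lie in that gene was not checked. Log2 signals of Mars2 were 5.63, 4.80, 5.32 and 5.69 in the fed livers, 5.79, 5.89, 5.97 and 5.59 at P2, 7.93, 7.73, 7.31 and 7.99 at P3, and 6.63, 6.92, 6.92 and 6.01 at P3r2. Every P3 value was above every value of the other groups, and every P3r2 value was above every fed and P2 value. P3 exceeded fed by 2.38 ± 0.23, a 5.21-fold difference (adjusted p = 1.8e-06).

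Qars1, the glutamine enzyme of the multisynthetase complex (transcript cluster 7154214, GRCr8 chr8:118086243-118094274), led the cytosolic genes. Log2 signals of Qars1 were 7.35, 6.23, 7.03 and 7.19 in fed livers, 7.06, 7.24, 7.25 and 6.38 at P2, 8.33, 8.01, 8.49 and 8.56 at P3, and 7.35, 7.55, 7.53 and 7.24 at P3r2. The 4 P3 livers were above all others, and the other 3 groups overlapped. P3 exceeded fed by 1.40 ± 0.23 (2.64-fold, adjusted p = 0.000378). Rars1, the arginine enzyme and also a member of the complex, gave 7.87, 6.95, 7.88 and 7.84 in fed livers, 7.41, 7.70, 7.88 and 7.87 at P2, 8.73, 8.45, 9.24 and 9.28 at P3, and 7.92, 8.13, 8.19 and 8.11 at P3r2. Here too the P3 livers stood above all others, with the replicates 3 and 4 highest. The change of P3 against fed was 1.29 ± 0.22 (2.45-fold, adjusted p = 0.000436).

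Vars1 and Sars1, the valine and serine enzymes outside the complex, changed by a similar amount. Log2 signals of Vars1 were 6.76, 6.40, 6.50 and 6.69 in fed livers, 6.34, 6.44, 6.25 and 5.78 at P2, 7.54, 7.04, 7.41 and 7.69 at P3, and 7.05, 6.93, 7.02 and 7.02 at P3r2. P3 did not overlap fed or P2, and the change of P3 against fed was 0.83 ± 0.15 (1.78-fold, adjusted p = 0.00093). Log2 signals of Sars1 were 9.13, 8.26, 9.05 and 9.04 in fed livers, 8.67, 9.11, 8.98 and 8.90 at P2, 9.73, 9.45, 9.86 and 9.75 at P3, and 9.31, 9.22, 9.19 and 9.26 at P3r2. The P3 livers were above all others, with a change against fed of 0.83 ± 0.17 (1.77-fold, adjusted p = 0.00184).

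Both tyrosine enzymes were called, the mitochondrial by more. Yars2 gave 6.15, 4.52, 6.30 and 6.45 in fed livers, 6.05, 6.45, 6.81 and 6.26 at P2, 7.05, 6.59, 7.13 and 7.32 at P3, and 7.31, 7.29, 7.35 and 7.33 at P3r2. The fed 2 value was far below the rest of its group, and the P3 and P3r2 values were all above the fed values. P3 exceeded fed by 1.17 ± 0.32 (adjusted p = 0.0167), and by 0.72 without fed 2, where the call held; without P3 4 the adjusted p was 0.0552, and with the 2 groups alone 0.0922. Yars1, the cytosolic tyrosine enzyme, gave 7.80, 7.35, 7.74 and 7.67 in fed livers, 7.48, 7.51, 7.85 and 7.50 at P2, 8.15, 7.85, 8.02 and 8.17 at P3, and 8.35, 8.39, 8.37 and 8.46 at P3r2. Its P3 values lay above the fed values and its P3r2 values above all other groups. The change of P3 against fed was 0.41 ± 0.12 (adjusted p = 0.0213), and the adjusted p was 0.0661 without fed 2, 0.0598 without P3 1, 0.069 without P3 4, 0.0858 without the 3 narrow arrays and 0.0783 with the 2 groups alone.

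Tars2 and Cars2, the mitochondrial threonine and cysteine enzymes, moved the other way at P3. Log2 signals of Tars2 were 7.30, 7.02, 7.33 and 7.34 in fed livers, 6.76, 6.65, 6.76 and 6.23 at P2, 6.66, 6.63, 6.28 and 6.47 at P3, and 7.62, 7.54, 7.75 and 7.58 at P3r2. Both fasted groups were below every fed value, and the re-fed livers were above it. P3 against fed was -0.74 ± 0.13 (0.599-fold, adjusted p = 0.00061). Cars2 gave 5.94, 5.50, 5.88 and 5.77 in fed livers, 5.75, 5.95, 5.78 and 6.05 at P2, 5.34, 5.41, 4.97 and 5.32 at P3, and 5.86, 5.83, 5.95 and 5.92 at P3r2. The P3 livers were below all others, with a change against fed of -0.52 ± 0.12 (adjusted p = 0.00568). Neither call was lost when any single array was left out, and the same was true of Mars2, Qars1, Rars1, Sars1 and Vars1.

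**Figure D3:**
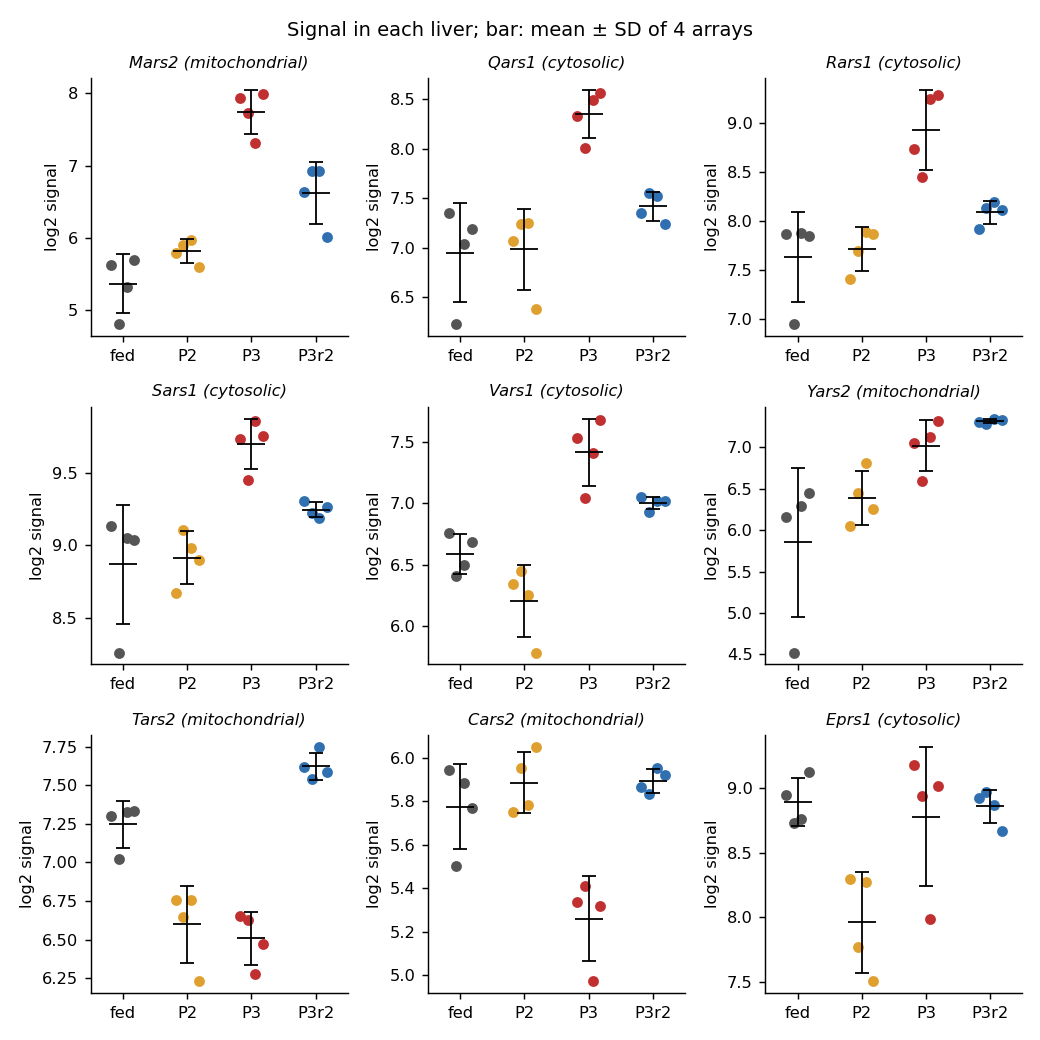
Log2 signal of 9 synthetase genes in each of the 16 livers, 1 point per array, with bars at the mean ± SD of the 4 arrays; each panel has its own vertical range. Mars2, Qars1, Rars1 and Sars1 are highest at P3, Cars2 is lowest at P3, Tars2 is low at P2 and P3, and Eprs1 is lowest at P2.

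Promoters are shown for Qars1 and Vars1, among the genes that led the P3 change, and for the genes that hold a motif of the amino acid response. Windows of 300 bases (250 before and 50 after the annotated start) came from RefSeq on GRCr8 and were found for 26 of the 27 genes; Rars1 had none. The core of the C/EBP-ATF response element was searched as TGATGNAA on both strands (TTNCATCA on the other), and the E-box as CACGTG, which reads the same on both; the motifs do not overlap. The first was present in 4 of 26 windows (15.4%), against 3.82% of 27457 genes with a window, and the second in 3 of 26 (11.5%; Farsb, Tars1 and Vars1), against 6.65%. All matches lay in cytosolic genes (4 of 12 and 3 of 12), and none in the 13 mitochondrial windows. Of the 4 genes with the response element core, Yars1 rose at P3 against fed, and Mars1 (0.40 ± 0.18), Nars1 (-0.16 ± 0.14) and Tars1 (0.22 ± 0.20) were not called. A match is a run of letters and does not show binding. The 4 matches are shown with up to 30 bases around them on the gene's strand, with the motif in capitals; the positions are chr7:65023752-65023781 (minus strand, 17 bases before the start), chr18:60275778-60275807 (minus, 14 before), chr2:62114811-62114840 (minus, 27 before) and chr5:146820190-146820212 (plus, from base 39 of the transcript).
Mars1: gcccgttccggTTGCATCAgcgtgggctcc
Nars1: cctaggtgatcTGATGCAAcgcttcagtca
Tars1: ctggcgtcccgTTGCATCAgctggttagct
Yars1: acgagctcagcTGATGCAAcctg

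The window of Qars1 (chr8:118085993-118086292, plus strand), the cytosolic gene with the largest rise at P3, holds neither motif. That of Vars1 (chr20:3824902-3825201, minus strand), which also rose, holds an E-box, in capitals, 39 bases before the start. The bases G and C make up 44.3% of the Qars1 window and 76.7% of the Vars1 window. Mars2 has 3 windows in the RefSeq table, and the one at the annotated gene start holds neither motif. The windows of Sars1 and Yars2, which also rose at P3, hold neither motif and are not shown.
Qars1: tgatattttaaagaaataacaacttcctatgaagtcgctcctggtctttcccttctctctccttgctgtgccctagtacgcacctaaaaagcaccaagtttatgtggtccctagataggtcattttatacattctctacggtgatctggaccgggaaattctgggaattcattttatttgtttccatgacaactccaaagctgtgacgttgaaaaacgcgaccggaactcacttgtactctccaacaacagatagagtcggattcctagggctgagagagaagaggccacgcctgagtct
Vars1: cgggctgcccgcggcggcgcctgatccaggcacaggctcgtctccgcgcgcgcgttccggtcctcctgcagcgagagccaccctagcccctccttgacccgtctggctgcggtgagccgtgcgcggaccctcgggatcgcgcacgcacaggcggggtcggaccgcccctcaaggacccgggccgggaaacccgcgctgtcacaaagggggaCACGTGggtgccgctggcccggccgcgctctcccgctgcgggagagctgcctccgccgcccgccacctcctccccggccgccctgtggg

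In P2 livers against fed livers, 5 of the 27 genes fell and none rose. Over all rows 6.58% were called lower and 6.13% higher (12.4% and 9.36% of the brighter rows), against 18.5% and 0% of the members. At an unadjusted p below 0.05, 12 members were lower and none higher. The 5 were the cytosolic Eprs1, Tars1 and Nars1 and the mitochondrial Tars2 and Vars2. The median change was -0.41 for cytosolic members, -0.15 for mitochondrial members and 0.05 over all rows. All 4 P2 livers were below all 4 fed livers in 4 members and above them in none, against 9% and 10.2% of all rows.

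Eprs1, the joint enzyme for glutamate and proline, gave 8.95, 8.73, 8.76 and 9.13 in fed livers, 8.30, 7.77, 8.27 and 7.50 at P2, 9.18, 8.94, 7.98 and 9.02 at P3, and 8.93, 8.97, 8.87 and 8.67 at P3r2. All P2 livers were below all fed livers, by a mean of -0.93 ± 0.23 (0.524-fold, adjusted p = 0.0176), and P3 3 stood apart from the other P3 livers. Tars1, the cytosolic threonine enzyme, gave 9.66, 8.98, 9.22 and 9.73 in fed livers, 8.66, 8.61, 9.14 and 8.30 at P2, 9.81, 9.30, 9.45 and 9.93 at P3, and 9.66, 9.70, 9.73 and 9.43 at P3r2. P2 and fed overlapped at P2 3 and fed 2, with a change of -0.72 ± 0.20 (adjusted p = 0.0283). Nars1, the asparagine enzyme, gave 8.78, 8.25, 8.38 and 8.61 in fed livers, 7.97, 7.95, 8.29 and 7.88 at P2, 8.73, 8.27, 8.16 and 8.23 at P3, and 8.77, 8.72, 8.81 and 8.72 at P3r2. P2 and fed overlapped at the same arrays, and the change was -0.48 ± 0.14 (adjusted p = 0.0378).

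For the mitochondrial pair, the values of Tars2 are given above, with a change of -0.65 ± 0.13 in P2 against fed (adjusted p = 0.00558). Vars2, the mitochondrial valine enzyme, gave 6.98, 6.92, 6.86 and 6.87 in fed livers, 6.31, 6.22, 6.62 and 6.08 at P2, 6.70, 6.83, 6.31 and 6.48 at P3, and 7.11, 7.02, 7.04 and 6.94 at P3r2. Both fasted groups were below every fed value; P2 against fed was -0.60 ± 0.13 (adjusted p = 0.00719) and P3 against fed, not called, -0.33 ± 0.13. Tars2 and Vars2 were called with any single array left out. Without fed 4, P2 2 or P2 4 the adjusted p of Eprs1 was 0.0514 to 0.0648, that of Tars1 0.0669 to 0.096 and that of Nars1 0.0883 to 0.108, leaving 2 genes called; Tars1 and Nars1 were also lost without fed 1 or P2 1 (adjusted p 0.0507 to 0.11), leaving 3. Nars1 alone was also lost without P3r2 1, P3r2 2 or P3r2 3 (adjusted p 0.0501 to 0.0513). With the 2 groups alone the adjusted p was 0.0771 for Tars1 and 0.0831 for Nars1. Without fed 2, 11 genes were called lower.

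Longer genes tended to be lower in this comparison. Over 8264 brighter genes, Spearman's rho between the change of P2 against fed and gene length was -0.38, with a median change of -0.35 in the longest and 0.20 in the shortest of 5 equal bins; rho was -0.08 for P3 against fed and 0.21 for P3 against P2, where the median change was 0.26 in the longest and -0.10 in the shortest bin. The cytosolic members span 8032 to 71556 bases, with a median of 19056, and the mitochondrial members 5100 to 427082, with a median of 15430. With the length trend taken out, 11 members were called lower and 1 higher (Fars2, 0.45, adjusted p = 0.0148), an alternative chosen after seeing the data.

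In P3 livers against P2 livers, 12 of the 27 genes rose and 1 fell. This was 44.4% of members called higher, against 13.5% of all rows and 25.1% of the brighter rows, and 3.7% lower against 8.53% and 13.7%. Of the 13 cytosolic enzymes, 10 rose and none fell, also at an unadjusted p below 0.05, where 12 were higher; all 13 changes were above 0, with a median of 0.90. Of the 13 mitochondrial enzymes, Mars2 and Sars2 rose and Cars2 fell, with a median of 0.24, against -0.03 over all rows. All 4 P3 livers were above all 4 P2 livers in 12 members and below them in 1, against 12.5% and 9.36% of all rows. Longer genes tended to be higher here (rho 0.21).

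The cytosolic changes of P3 against P2 were 1.37 for Qars1, 1.21 for Vars1, 1.21 for Rars1, 1.04 for Farsb, 0.99 for Lars1, 0.95 for Tars1, 0.90 for Mars1, 0.82 for Eprs1, 0.78 for Sars1 and 0.46 for Yars1, with standard errors of 0.12 to 0.29. Not called were Wars1 (0.34 ± 0.13), Nars1 (0.33 ± 0.14) and Kars1 (0.32 ± 0.16), for tryptophan, asparagine and lysine. Among the 6 members of the multisynthetase complex, 5 rose, with Kars1 as the exception, and among the 7 outside it 5 rose. The values show which of these also differ from the fed state. Qars1, Rars1, Sars1, Vars1 and Yars1 were above both P2 and fed at P3. Eprs1 and Tars1 fell at P2 against fed and at P3 were not called against fed (-0.11 ± 0.23 and 0.22 ± 0.20).

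Farsb and Mars1 were between these patterns. Farsb gave 7.81, 6.99, 7.67 and 7.98 in fed livers, 7.15, 7.20, 7.37 and 6.78 at P2, 8.18, 7.97, 8.07 and 8.43 at P3, and 8.35, 8.31, 8.69 and 8.52 at P3r2. P3 was above all P2 values, by 1.04 ± 0.19 (adjusted p = 0.000881), and overlapped fed. Mars1, the cytosolic methionine enzyme, gave 8.21, 7.58, 8.21 and 8.32 in fed livers, 7.63, 7.48, 7.99 and 7.24 at P2, 8.66, 8.24, 8.38 and 8.65 at P3, and 8.40, 8.30, 8.48 and 8.17 at P3r2. P3 was above all P2 values, by 0.90 ± 0.18 (adjusted p = 0.00163), with P3 2 within the fed range.

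Lars1, the cytosolic leucine enzyme, varied widely within groups. Its values were 7.82, 6.86, 7.53 and 8.14 in fed livers, 6.93, 6.61, 7.07 and 6.15 at P2, 8.13, 7.60, 6.95 and 8.04 at P3, and 7.97, 8.04, 8.05 and 7.66 at P3r2. P3 3 fell within the P2 range, and the change of P3 against P2 was 0.99 ± 0.29 (adjusted p = 0.0206). Without P2 4, P3 1 or P3 4 the adjusted p was 0.0702 to 0.0742. The call of Eprs1 (adjusted p = 0.0179) was lost without the same 3 arrays or P2 2 (adjusted p 0.0521 to 0.0653) and with the 2 groups alone (0.0878). Among mitochondrial enzymes, Mars2 rose by 1.93 ± 0.23 (adjusted p = 2.11e-05), Sars2, for serine, by 0.40 ± 0.10 (adjusted p = 0.00971), and Cars2 changed by -0.63 ± 0.12 (adjusted p = 0.00133). Sars2 was not called after quantile normalization (adjusted p = 0.54), with the 2 groups alone (0.0502) or with the length trend taken out (0.0538), nor was Yars1 after quantile normalization (0.0758) or with that trend taken out (0.0665).

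In P3r2 livers against P3 livers, 8 of the 27 genes rose and 3 fell, and the median change was larger for the mitochondrial members. The medians of the forms, apart at P3, were close together on the P3r2 arrays. There the cytosolic minus mitochondrial difference was -0.10 to -0.05, inside the range of the fed arrays (-0.33 to 0.12). Of all rows, 10.5% were called higher and 7.93% lower (19.1% and 14% of the brighter rows), against 29.6% and 11.1% of the members. Of the mitochondrial enzymes, 6 rose (Tars2, Hars2, Lars2, Cars2, Rars2 and Vars2) and Mars2 fell, and of the cytosolic enzymes Wars1 rose, and Qars1 and Rars1 fell; Aarsd1 rose. The median change was 0.08 for cytosolic and 0.35 for mitochondrial members, against -0.03 over all rows. All 4 P3r2 livers were above all 4 P3 livers in 12 members and below them in 4, against 12.6% and 10.2% of all rows. After quantile normalization the split of calls was 6 higher and 6 lower.

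Tars2 rose by 1.11 ± 0.13 (2.17-fold, adjusted p = 1.54e-05), and every re-fed liver was above every liver of the other groups. Cars2 rose by 0.63 ± 0.12 (adjusted p = 0.00127), to values that overlap the fed range. Hars2, the mitochondrial histidine enzyme, gave 6.79, 6.10, 6.55 and 6.83 in fed livers, 6.23, 6.23, 6.37 and 5.93 at P2, 6.87, 6.81, 6.23 and 6.86 at P3, and 7.37, 7.45, 7.56 and 7.13 at P3r2. All re-fed livers were above all others, by 0.69 ± 0.18 over P3 (adjusted p = 0.0124). Rars2, the mitochondrial arginine enzyme, gave 5.57, 5.11, 5.30 and 5.73 in fed livers, 5.08, 5.29, 5.34 and 5.22 at P2, 5.45, 5.40, 5.03 and 5.60 at P3, and 5.93, 5.99, 6.20 and 5.78 at P3r2. The order was the same, with a change of 0.60 ± 0.15 over P3 (adjusted p = 0.009). Lars2 gave 2.63, 2.62, 2.28 and 2.86 in fed livers, 2.17, 2.69, 2.54 and 2.49 at P2, 2.52, 2.26, 2.33 and 2.36 at P3, and 3.08, 3.12, 3.01 and 2.85 at P3r2. It rose by 0.65 ± 0.13 over P3 (adjusted p = 0.00213), at signals near the bottom of the scale. Vars2 (0.45 ± 0.13, adjusted p = 0.019) was lost without P3 3, P3 4 or P3r2 1 (adjusted p 0.0578 to 0.0643) and Aarsd1 (0.39 ± 0.11, adjusted p = 0.0184) without P3 1, P3 2, P3r2 3 or P3r2 4 (adjusted p 0.0514 to 0.0593); after quantile normalization their adjusted p was 0.0924 and 0.159.

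The 3 falls were in the genes that had changed most at P3. Mars2 changed by -1.12 ± 0.23 (0.461-fold, adjusted p = 0.00209), Qars1 by -0.93 ± 0.23 (adjusted p = 0.0095) and Rars1 by -0.84 ± 0.22 (adjusted p = 0.0124), and for each gene all P3r2 values were below all P3 values. The comparisons of P3 with fed and of P3r2 with P3 share the P3 arrays, so a change of opposite sign in them is not independent. Wars1, the cytosolic tryptophan enzyme, gave 7.54, 7.00, 7.37 and 7.45 in fed livers, 6.91, 7.05, 7.12 and 7.08 at P2, 7.23, 7.24, 7.46 and 7.62 at P3, and 7.82, 7.85, 8.04 and 8.05 at P3r2. Its re-fed livers were above all others, by 0.55 ± 0.13 over P3 (adjusted p = 0.00501). Sars1 (-0.45 ± 0.17, adjusted p = 0.0767) and Vars1 (-0.41 ± 0.15, adjusted p = 0.0789) were not called.

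In P3r2 livers against fed livers, 8 of the 27 genes rose (29.6%) and none fell, where 2.21% of all rows were called higher and 0.514% lower (4.16% and 0.9% of the brighter rows). At an unadjusted p below 0.05, 15 members were higher and none lower. The changes of 26 members were above 0; the exception was Eprs1 (-0.03 ± 0.23). The median change was 0.38 for the 13 cytosolic and 0.42 for the 13 mitochondrial members, against 0.02 over all rows and 0.10 over the brighter rows.

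The 8 were Yars2 (1.46 ± 0.32, adjusted p = 0.0238), Mars2 (1.26 ± 0.23, adjusted p = 0.00732), Farsb (0.86 ± 0.19, adjusted p = 0.0243), Hars2 (0.81 ± 0.18, adjusted p = 0.0241), Yars1 (0.75 ± 0.12, adjusted p = 0.00312), Wars1 (0.60 ± 0.13, adjusted p = 0.0183), Aarsd1 (0.56 ± 0.11, adjusted p = 0.0105) and Sars2 (0.50 ± 0.10, adjusted p = 0.0147). In each of them all 4 re-fed livers were above all 4 fed livers. Aarsd1 gave 6.83, 6.50, 6.92 and 6.88 in fed livers, 6.94, 6.96, 7.01 and 6.91 at P2, 6.88, 6.80, 7.16 and 6.98 at P3, and 7.27, 7.27, 7.39 and 7.44 at P3r2. Only the re-fed group of Aarsd1 stood apart. Sars2 gave 6.62, 6.40, 6.39 and 6.41 in fed livers, 6.18, 6.41, 6.37 and 6.26 at P2, 6.80, 6.76, 6.48 and 6.77 at P3, and 6.84, 7.00, 7.06 and 6.92 at P3r2. Its re-fed values were above those of every other group.

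Mars2, Yars1 and Aarsd1 were called with any single array left out. Without P3r2 3 these were the only 3 called, with adjusted p of 0.0594 to 0.0917 for the other 5; without P3r2 1, P3r2 2 or P3r2 4, 5 were called. After quantile normalization Aarsd1 (adjusted p = 0.278), Sars2 (0.28) and Wars1 (0.189) were lost, and with the 2 groups alone Farsb (0.0652), Wars1 (0.0512) and Yars2 (0.077). The adjusted p of Hars2 was 0.0709 without fed 2 and 0.0518 without fed 3. Kars1, Rars1, Sars1, Vars1, Fars2, Rars2, Aars2 and Tars2 were also higher in all 4 re-fed livers than in all 4 fed livers without being called, at changes of 0.32 to 0.54; 16 of 27 members separated in this way and none in the other, against 9.85% and 2.7% of all rows.

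For 10 amino acids the change of the cytosolic gene was tested against that of its mitochondrial counterpart, from the difference of their log2 signals on each array. In P3 against fed the difference was called in 7 of 10 pairs. In 5 the cytosolic gene changed more upward: Rars1 over Rars2 by 1.35 ± 0.21 (adjusted p = 0.000211), Vars1 over Vars2 by 1.16 ± 0.19 (adjusted p = 0.000273), Tars1 over Tars2 by 0.96 ± 0.17 (adjusted p = 0.000543), Sars1 over Sars2 by 0.58 ± 0.17 (adjusted p = 0.0261) and Farsb over Fars2 by 0.40 ± 0.11 (adjusted p = 0.0182). For threonine the difference came with a fall of Tars2 and a change of Tars1 that was not called. In 2 the mitochondrial gene changed more upward: Mars1 against Mars2 gave -1.98 ± 0.16 (adjusted p = 5.33e-07) and Yars1 against Yars2 -0.76 ± 0.25 (adjusted p = 0.045). The pairs Eprs1 and Pars2 (-0.15 ± 0.28), Lars1 and Lars2 (0.32 ± 0.28) and Wars1 and Wars2 (-0.07 ± 0.14) were not called. How often a difference between other rows would be called was not counted, here or in the other comparisons, so the counts of pairs have no background. Of single brighter rows, 20.8% were called higher and 14.5% lower in P3 against fed.

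The arginine, valine, threonine and methionine differences were called with any single array left out. Without P3 4 the number called was 4: Farsb against Fars2 (adjusted p = 0.0635), Sars1 against Sars2 (0.0541) and Yars1 against Yars2 (0.115) were lost. The serine difference was also lost without fed 2 (0.0684) or P3 3 (0.0878), and the phenylalanine difference without fed 2 (0.0526). The tyrosine difference was lost with 12 of the 16 arrays left out in turn (adjusted p 0.0516 to 0.115), among them all P2 and P3r2 arrays, which enter its fit only through the shared spread. Without the 3 narrow arrays the serine difference was 0.26 (adjusted p = 0.158), the phenylalanine difference 0.34 (0.0915) and the tyrosine difference -0.37 (0.109). The serine (0.117) and tyrosine (0.169) differences were also lost with the 2 groups alone, the tyrosine difference after quantile normalization (0.0815), and the phenylalanine difference with the length trend taken out (0.19, adjusted p = 0.173).

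**Figure D4:**
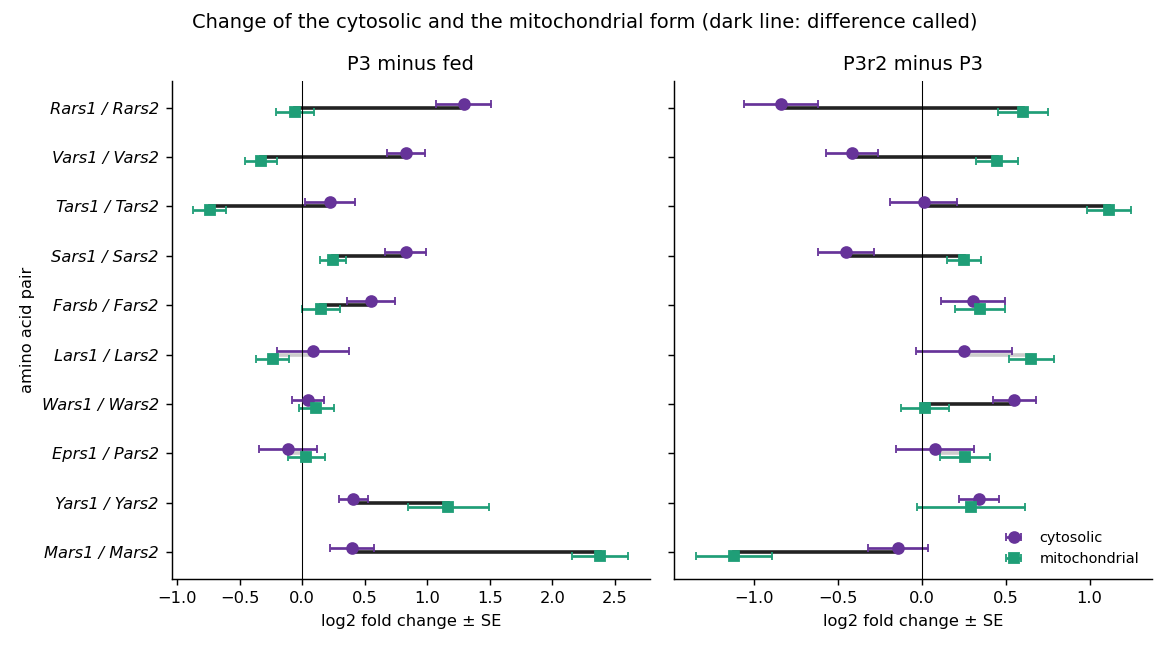
Log2 fold change ± standard error of the cytosolic form (circles) and the mitochondrial form (squares) for 10 pairs, in P3 against fed (left) and P3r2 against P3 (right); the line joining the forms is dark where the difference between them was called. The arginine pair is furthest apart upward at P3 (1.29 against -0.06), the methionine pair is the widest with the mitochondrial form ahead (0.40 against 2.38), and the order of both is turned on the right.

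After re-feeding, 5 of the 7 differences called at P3 were called with the opposite sign. The comparisons share the P3 arrays. In P3r2 against P3 the cytosolic gene changed less upward than its counterpart for arginine (-1.44 ± 0.21, adjusted p = 0.00013), threonine (-1.10 ± 0.17, adjusted p = 0.000177), valine (-0.86 ± 0.19, adjusted p = 0.00336) and serine (-0.70 ± 0.17, adjusted p = 0.00825). It changed more upward for methionine (0.98 ± 0.16, adjusted p = 0.000457) and tryptophan (0.53 ± 0.14, adjusted p = 0.0128). Rars1 fell and Rars2 rose, so both forms were called, in opposite directions. For phenylalanine (-0.04 ± 0.11) and tyrosine (0.05 ± 0.25), the other 2 pairs called at P3, no difference was called in P3r2 against P3. All 6 differences were called with any single array left out.

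In P3 against P2, 6 of 10 differences were called: leucine (1.10 ± 0.28), arginine (1.08 ± 0.21), threonine (1.04 ± 0.17), phenylalanine (0.98 ± 0.11) and valine (0.94 ± 0.19) with the cytosolic gene ahead, and methionine (-1.03 ± 0.16) with the mitochondrial gene ahead, at adjusted p of 1.78e-05 to 0.0101. For leucine and valine the differences on P3 and P2 arrays overlapped. The leucine difference came mostly from Lars1 (0.99 ± 0.29). Lars2 changed by -0.11 ± 0.13, at a mean signal of percentile 11.2 that may not be above background. In P2 against fed, 2 differences were called, both with the cytosolic gene changing less upward: phenylalanine (-0.57 ± 0.11, adjusted p = 0.00476) and methionine (-0.95 ± 0.16, adjusted p = 0.00244). None of the genes of these pairs was called alone: Farsb changed by -0.485 ± 0.19, Fars2 by 0.09 ± 0.15, Mars1 by -0.50 ± 0.18 and Mars2 by 0.45 ± 0.23. No difference was higher in P2 against fed, also at an unadjusted p below 0.05. Fars2 itself gave 7.13, 6.43, 6.97 and 7.11 in fed livers, 6.91, 7.13, 7.21 and 6.74 at P2, 7.10, 7.02, 6.93 and 7.18 at P3, and 7.55, 7.30, 7.45 and 7.32 at P3r2, and was called in none of the 5 comparisons. In P3r2 against fed 1 difference was called, methionine (-1.0 ± 0.16, adjusted p = 0.00387), and none was higher, where 2 were at an unadjusted p below 0.05. Without P3 1 a second was called in P3r2 against fed.

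Methionine was the only pair called in all 5 comparisons, and it rests on the row named Mars2, whose match to the gene is by symbol alone. Mars2 was ahead of Mars1 in every comparison except P3r2 against P3, where it fell and Mars1 (-0.14 ± 0.18) was not called.

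Of the 27 genes, 22 were called in at least 1 comparison. The share of all rows called in at least 1 was not counted, so this count has no background to be set against. Called in none were 5 genes: Kars1, Aars2, Fars2, Pars2 and Wars2. Their changes lay between -0.41 (Kars1, P2 against fed) and 0.50 (Fars2, P3r2 against fed). Kars1, which serves both compartments, gave 9.51, 8.98, 9.38 and 9.59 in fed livers, 9.13, 9.16, 9.08 and 8.44 at P2, 9.23, 9.22, 9.18 and 9.45 at P3, and 9.65, 9.67, 9.79 and 9.63 at P3r2. The re-fed livers were above all others and P2 4 was the lowest. Wars2, for mitochondrial tryptophan, gave 5.63, 5.01, 5.17 and 5.20 in fed livers, 5.18, 5.21, 5.39 and 5.26 at P2, 5.62, 5.16, 5.18 and 5.53 at P3, and 5.22, 5.58, 5.44 and 5.31 at P3r2, and its groups overlapped in every comparison. A change that was not called is not shown to be absent.

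Synthetases fall into class I and class II, which differ in the fold of the catalytic domain. Of the 14 class I members, 6 rose and 1 fell in P3 against fed, with a median change of 0.26, and of the 11 class II members 1 rose (Sars1) and 1 fell (Tars2), with a median of 0.12. Of the brighter rows 20.8% were higher and 14.5% lower, and of all rows 11.3% and 8.06%. Eprs1, which carries an enzyme of each class, was left out of both sets. The difference between the classes was not tested.

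The accessory proteins of the multisynthetase complex were measured in the same fit. In P3 against fed, 2 of 3 rose: Aimp2, at 8.75 ± 0.75 against 6.60 ± 0.59 (SD), by 2.15 ± 0.32 (adjusted p = 0.000146), and Eef1e1, at 8.59 ± 0.40 against 7.53 ± 0.08, by 1.07 ± 0.19 (adjusted p = 0.000649). Aimp1 (0.43 ± 0.17) was not called. Of the brighter rows 20.8% were called higher there, and of all rows 11.3%. In P3 against P2 all 3 rose, by 0.55 (Eef1e1) to 1.51 (Aimp2), where 25.1% of the brighter rows and 13.5% of all rows were higher. The Eef1e1 call was close to the threshold (limma adjusted p = 0.0486), and its groups overlapped. In P3r2 against P3, Aimp2 fell (-1.21 ± 0.32, adjusted p = 0.0141) and the other 2 were not called, where 14% of the brighter rows and 7.93% of all rows were lower. In P2 against fed none was called. In P3r2 against fed Eef1e1 rose (0.74 ± 0.19, adjusted p = 0.0499), where 4.16% of the brighter rows and 2.21% of all rows were higher.

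Other genes that make or use tRNA were counted in lists. In P3 against fed, 9 of 21 genes of tRNA synthesis, processing and export rose and none fell, among them Rpp40 (2.03 ± 0.19), Rpp14 (1.45 ± 0.25), which are RNase P subunits, Polr3e (1.08 ± 0.18), a subunit of RNA polymerase III, and Maf1 (1.69 ± 0.19), the repressor of that polymerase. Of 20 cytosolic tRNA modification genes, 9 rose, such as Trmt61a (2.27 ± 0.28) and Trmt1 (1.73 ± 0.20), both tRNA methyltransferases, Dus4l (1.76 ± 0.15), a dihydrouridine synthase, and Qtrt1 (1.74 ± 0.20), which inserts queuine, and Pus10 fell (-0.77 ± 0.17). Of 7 genes of cytosolic elongation and termination, 4 rose: Eef1d (1.57 ± 0.19), Etf1 (1.02 ± 0.21), Abce1 (0.84 ± 0.22) and Eef2 (0.51 ± 0.15). Of 19 mitochondrial translation factors and tRNA enzymes, 7 rose, such as Trmt10c (1.58 ± 0.31) of mitochondrial RNase P, Qrsl1 (1.40 ± 0.19) of the amidotransferase that makes glutaminyl-tRNA in mitochondria, Trit1 (0.97 ± 0.16) and Pus1 (0.77 ± 0.12), and Gatc, another subunit of that amidotransferase, fell (-0.45 ± 0.11). These counts stand beside 11.3% of all rows and 20.8% of the brighter rows called higher, and 8.06% and 14.5% called lower. The median changes were 0.36, 0.26, 0.51 and 0.25, against 0.03 over all rows.

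The same lists were counted in the other comparisons. In P2 against fed, 5 rose and 2 fell in tRNA synthesis, 2 and 2 in tRNA modification, 2 and 1 in elongation, and 1 and 0 in the mitochondrial list, where 9.36% of the brighter rows were higher and 12.4% lower. In P3 against P2 these counts were 8 and 2, 9 and 1, 4 and 1, and 8 and 1, where 25.1% of the brighter rows were higher and 13.7% lower. In P3r2 against P3 they were 2 and 5 (Maf1 -1.90 ± 0.19, Rpp40 -1.43 ± 0.19), 2 and 7 (Qtrt1 -1.42 ± 0.20, Trmt1 -1.31 ± 0.20), 1 and 2, and 4 and 3, where 19.1% of the brighter rows were higher and 14% lower. In the mitochondrial list the 4 risers were Gatc (0.83 ± 0.11), Mtfmt (0.79 ± 0.18), Mto1 (0.75 ± 0.21) and Tufm (0.50 ± 0.13). In P3r2 against fed 2, 2, 1 and 2 genes rose and none fell in any of the 4, where 4.16% of the brighter rows were higher and 0.9% lower. The shares of all rows called higher and lower were 6.13% and 6.58% in P2 against fed and 13.5% and 8.53% in P3 against P2. They were 10.5% and 7.93% in P3r2 against P3, and 2.21% and 0.514% in P3r2 against fed.

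The amino acid response was followed through Atf4, Trib3, Asns and other genes. Atf4 averaged 8.60 ± 0.29 in fed livers, 9.13 ± 0.15 at P2, 10.1 ± 0.33 at P3 and 8.90 ± 0.04 at P3r2 (log2, SD). It rose in P2 against fed by 0.53 ± 0.16 (adjusted p = 0.0434), in P3 against fed by 1.53 ± 0.16 (adjusted p = 5.12e-06) and in P3 against P2 by 1.00 ± 0.16, and changed by -1.24 ± 0.16 in P3r2 against P3 (adjusted p = 4.46e-05). Trib3, a pseudokinase induced by ATF4, followed the same order (2.75 ± 0.23 in P3 against fed, -2.65 ± 0.23 in P3r2 against P3). Asns, asparagine synthetase, rose in P3 against fed by 0.80 ± 0.22 (adjusted p = 0.0164) and again in P3r2 against P3 by 0.96 ± 0.22 (adjusted p = 0.00553), so that its re-fed mean was the highest, at 1.76 ± 0.22 above fed. Of the 27 members, 20 had their highest mean in the re-fed group, 6 at P3 (Mars1, Mars2, Qars1, Rars1, Sars1 and Vars1) and 1 in the fed group (Eprs1). How many of all rows, or of the brighter rows, were highest in each group was not counted, so these counts have no background. No test of likeness to these genes was made.

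Of 31 measured genes of the amino acid response list, 14 rose and 6 fell in P3 against fed, with a median change of 0.06, where 11.3% of all rows were called higher and 8.06% lower (20.8% and 14.5% of the brighter rows). The largest rises were of Slc38a2 (3.66 ± 0.22), an amino acid transporter, Chac1 (3.35 ± 0.32), which degrades glutathione, Nupr1 (3.22 ± 0.32) and Atf3 (3.16 ± 0.22), stress-induced nuclear proteins. Slc6a9 (-1.89 ± 0.26), a glycine transporter, Shmt2 (-1.82 ± 0.22), mitochondrial serine hydroxymethyltransferase, and Atf5 (-1.81 ± 0.27) fell. The counts were 5 and 4 in P2 against fed (6.13% and 6.58% of all rows), 13 and 4 in P3 against P2 (13.5% and 8.53%), 10 and 11 in P3r2 against P3 (10.5% and 7.93%), and 3 and 0 in P3r2 against fed (2.21% and 0.514%). Among the brighter rows these shares were 9.36% and 12.4%, 25.1% and 13.7%, 19.1% and 14%, and 4.16% and 0.9%, in the same order.

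Markers of other liver cells were set beside these changes. Of the stellate cell and fibroblast list, 5 of 7 genes were measured, and their mean log2 signal per array lay between 6.87 and 8.70 at P3 and between 6.80 and 7.69 in fed livers. In P3 against fed, Dcn (decorin) rose by 3.80 ± 0.39, and Col3a1 (-1.65 ± 0.50) and Lrat (-1.28 ± 0.22) fell; in P2 against fed Dcn rose (1.36 ± 0.39) and Lrat fell (-1.06 ± 0.22). Dcn also rose in P3 against P2 (2.44 ± 0.39), and in P3r2 against P3 it fell (-3.81 ± 0.39) and Lrat rose (1.18 ± 0.22). Of the hepatocyte markers, Cps1 rose (0.56 ± 0.10) and Alb (-0.39 ± 0.08), Ttr (-0.93 ± 0.10) and Asgr1 (-1.68 ± 0.32) fell in P3 against P2, and Alb (0.26 ± 0.08) and Ttr (0.90 ± 0.10) rose in P3r2 against P3. None of these lists had a call in P3r2 against fed. The 6 Kupffer cell, 4 lymphocyte and neutrophil, 2 cholangiocyte and 1 endothelial markers measured gave no call in any comparison, and erythroid markers were not analysed here. The part of these marker changes in the synthetase changes was not tested.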

How the data were processed

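Liver RNA of 16 rats was measured on exon arrays, 1 array per animal. The deposited values are log2 signals, 1 for each transcript cluster and array. Per the submitters' processing notes, the authors made them with GCOS and Affymetrix Expression Console 1.1; the base of the logarithm follows from the range of the values (0.836 to 13.6). How probes were summarised and background corrected is not given in the sources used here. Signals of arrays are compressed at both ends, which can understate changes of dim and of very bright genes. The values were used without further scaling. The table has 19418 rows, of which 533 below the annotated range of identifiers were left out. Of the 18885 rows tested, 13335 carry 1 gene symbol, 612 several and 4938 none. Symbols come from the platform annotation, which is old, updated through RefSeq (GRCr8); all 27 members matched by symbol, and Mars2 by symbol alone. Positions and promoters are from GRCr8; the files name no build.

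The test was that of limma 3.58.1, run under R 4.3.3 (lmFit, eBayes, 5 contrasts over 16 arrays, Benjamini-Hochberg over all rows, threshold 0.05), with no filter on dim rows. For 10 pairs of forms the difference on each array was fitted as a further row. The steps were tested on simulated data. Per array values were to be named for the 3 cytosolic and the 2 mitochondrial members with the largest called change per comparison and for members of called pairs, and up to 4 called genes per partner list; Atf4, Asns and Trib3 always. Other members with per array values were added. Members, lists and most alternatives were chosen with earlier results of these data known. The labels do not say what the replicate numbers mean, and the main test did not pair by them. Deviations of arrays with the same number correlated at -0.47 to 0.31 (median -0.04, 24 pairs). Those of arrays with other numbers correlated at -0.38 to 0.41 (median 0.01, 72 pairs). Such values cannot show that the animals were unmatched. Alternatives were quantile normalization, centring on the median, brighter rows alone, 2 groups alone, trend and robust options, a threshold of 0.01, mean of all rows of a gene, replicate block, the 3 narrow arrays left out, array spread as a covariate and each array left out; rows with a gene name alone, all rows of the table, and the length trend taken out were added after seeing the data. Figures were drawn with matplotlib 3.10.9.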

Additional observations from a re-analysis of the deposited data

Results flagged for a closer look

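Single arrays stood far from the other 3 of their group (gap over range above Dixon's critical value for 4 samples) in 10 of 108 gene and group sets; chance flags about 1 in 20. In the fed group, array fed 2 was the low value for Mars1 (7.58, next 8.21), Rars1 (6.95, next 7.84), Sars1 (8.26, next 9.04), Tars2 (7.02, next 7.30) and Yars2 (4.52, next 6.15). These 5 include 4 genes called in P3 against fed, and the calls of Rars1, Sars1, Tars2 and Yars2 held without fed 2. Array fed 1 was the high value for Sars2 (6.62, next 6.41). At P3, array P3 3 was the low value for Hars2 (6.23, next 6.81) and Sars2 (6.48, next 6.76). At P2, array P2 4 was the low value for Kars1 (8.44, next 9.08) and array P2 3 the high value for Yars1 (7.85, next 7.51). Arrays fed 2, P2 4 and P3 3 are the ones whose values spread least, and they account for 8 of the 10. Their part in these values was not tested.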

How the results depend on the processing

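None of the 46 member calls reversed under 29 alternatives (45 of them could be tested among the brighter rows, which leave out Lars2), and none of the 22 pair calls under the 27 alternatives run for pairs. In P2 against fed, 5 members were lower and 0 higher; quantile normalization gave 9 and 1, the 3 narrow arrays left out 11 lower, the length trend taken out 11 and 1 (with 4 pairs called and a cytosolic minus mitochondrial median of -0.44, against -0.26), the 2 groups alone 3 lower, the threshold of 0.01 2 lower and array spread as a covariate 2 higher. In P3 against fed, 4 instead of 7 pairs were called at 0.01 and without the 3 narrow arrays. In P3 against P2, 2 instead of 1 were lower after quantile normalization and with the length trend taken out. In P3r2 against P3, 6 instead of 3 were lower after quantile normalization and with the spread as a covariate, 5 without the narrow arrays or the length trend, and 5 instead of 8 were higher at 0.01. In P3r2 against fed, 5 instead of 8 were higher after quantile normalization and with the 2 groups alone, and 2 at 0.01. The causes were not tested.

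With each array left out, members higher and lower were 0 and 2 to 11 in P2 against fed, 5 to 8 and 2 to 3 in P3 against fed, 10 to 15 and 1 in P3 against P2, 7 to 11 and 3 to 4 in P3r2 against P3, and 3 to 9 and 0 in P3r2 against fed. Pairs called were 2 to 3, 4 to 7, 6 to 7, 6 to 6 and 1 to 2 in the same order. The cytosolic minus mitochondrial medians ran from -0.37 to -0.18, 0.27 to 0.43, 0.62 to 0.79, -0.38 to -0.21, and -0.14 to 0.03. With replicate number as a block (replicate block), 0 and 5, 7 and 2, 12 and 1, 8 and 3, and 7 and 0 members were higher and lower in the same order; Hars2 in P3r2 against fed was the only call lost, and 2 of 16 arrays correlated best with their own number.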
